A study of Homo sapiens with 9 samples.

Results

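Caspases are proteases that cut other proteins after aspartate, and they lie dormant in living cells until an upstream signal assembles them into an activating complex. At the cell surface, ligated death receptors gather the initiator caspase-8 (CASP8) through adaptor proteins, and the caspase-8 relative CFLAR (c-FLIP), which lacks protease activity, competes with it there. Inside the cell, cytochrome c (CYCS) released from mitochondria binds APAF1, and the wheel-shaped apoptosome that forms activates the initiator caspase-9 (CASP9). The inhibitor of apoptosis proteins (IAPs) hold this cascade back: XIAP binds and blocks caspases directly, whereas BIRC2 (cIAP1) and BIRC3 (cIAP2) are ubiquitin ligases of the TNF receptor complex and of NF-kappaB signalling. The transcripts of these 8 genes are described here. They were chosen by name, with earlier results of these data known. Each was found in the table of every library among 26830 genes, and all 8 passed the filter on low counts that left 13365 genes for testing.

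Polyadenylated RNA was sequenced from cells labelled NB4, a human line known from promyelocytic leukaemia whose labels here say monocytic leukaemia, 48 h after treatment with DMSO (the solvent), FB23 or FB23-2, and the title of the series gives inhibition of the RNA demethylase FTO as its theme. There were 3 libraries per group and 9 in all. No genetic change and no second agent is labelled in any group, and neither the labels nor the files give the doses of FB23 and FB23-2, so the compounds are compared at the same time and not at a stated dose. The labels do not say whether the libraries of a group came from separate cultures. The tests therefore set each difference against the spread between these libraries, which may be technical.

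Total expected counts ran from 12360300 in FB23 replicate 1 to 38410800 in FB23 replicate 3, with the DMSO and FB23-2 libraries between them. The markers did not match a promyelocytic line: the granule genes MPO and CTSG, abundant in promyelocytes, were at 0 counts in all 9 libraries, and the summed level of 5 such genes was at most 1.77 TPM (RSEM's length-normalised transcript abundance). The summed level of 7 erythroid genes, among them the globins HBG2, HBZ and HBA1, was 19942 to 21109 TPM with DMSO, 22919 to 24670 TPM with FB23 and 2306 to 2643 TPM with FB23-2. The summed level of 5 monocyte and dendritic cell genes was 4.16 to 5.4 TPM with DMSO, 2.99 to 3.71 TPM with FB23 and 30.5 to 30.9 TPM with FB23-2, and that of 6 lymphoid genes was 4.87 to 6.86, 4.15 to 5.17 and 30.6 to 35.4 TPM. The first of these rises rests on ITGAX (0.067 to 18.8 TPM from DMSO to FB23-2) and LYZ (4.35 to 11.4 TPM), while CD14 was at 0.37 and 0.28 TPM and CSF1R and FCGR3A were at or below 0.24 TPM in every group mean. The second rests on CD3D (5.21 to 32.2 TPM), and MS4A1 and NCAM1 were at 0 counts throughout. These lists moved together with the FB23-2 results below, and their part in those results was not tested. In RNA from bulk cells, fewer cells of a type and less RNA per cell cannot be told apart.

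With FB23-2 the transcripts of 7 members were higher than with DMSO and CYCS was lower, and all 8 passed the test. Changes ran from a 15.1-fold rise of BIRC3 through 3.70-fold for APAF1 and about 2.4-fold for CASP9 and CASP8 to 1.27-fold for BIRC2, and CYCS fell 2.99-fold. The effect on the whole transcriptome was wide: 82.6% of the tested genes were called in this comparison (an adjusted p under 0.05 by edgeR's quasi-likelihood test over all tested genes), 41.3% as higher, so a call by itself sets no member apart. A log2 change of at least 1 in either direction was reached by BIRC3, APAF1, CASP9, CASP8 and CYCS, 5 of the 8, beside 36.8% of all tested genes. The median log2 fold change was 1.0 over the 8 members and 0.010 over all tested genes, a description only, since the 8 were picked with earlier results of these data known. The 3 FB23-2 libraries lay outside the range of the 3 DMSO libraries for all 8 members, as they did for 84.2% of all tested genes.

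With FB23 against DMSO, 2 members were called higher (BIRC2 and APAF1), 1 lower (BIRC3) and 5 were not called, where 23.5% of all tested genes were called. The median log2 fold change of the members was 0.024, beside 0.0040 over all tested genes, and the groups did not overlap for 2 of 8 members, beside 37.9% of all genes. These 3 calls were fragile. No member was called higher when DMSO replicate 1, DMSO replicate 2 or FB23 replicate 2 was left out and 1 was without DMSO replicate 3, and none was called lower without any 1 of the DMSO libraries, FB23 replicate 2 or FB23 replicate 3.

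The direct comparison of FB23-2 with FB23 called 7 members higher and 1 lower, beside 81.5% of all tested genes called and 40.4% called higher. A log2 difference of at least 1 was again reached by 5 of the 8, beside 32.2% of all tested genes. The lower 1 was CYCS, and the median log2 difference was 0.90 over the members and 0.0021 over all tested genes. The 2 FB23-2 comparisons share the FB23-2 libraries, and the 2 comparisons with DMSO share the DMSO libraries, so each is given side by side for every gene below. Groups did not overlap for all 8 members, beside 81.2% of all tested genes.

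**Figure D1:**
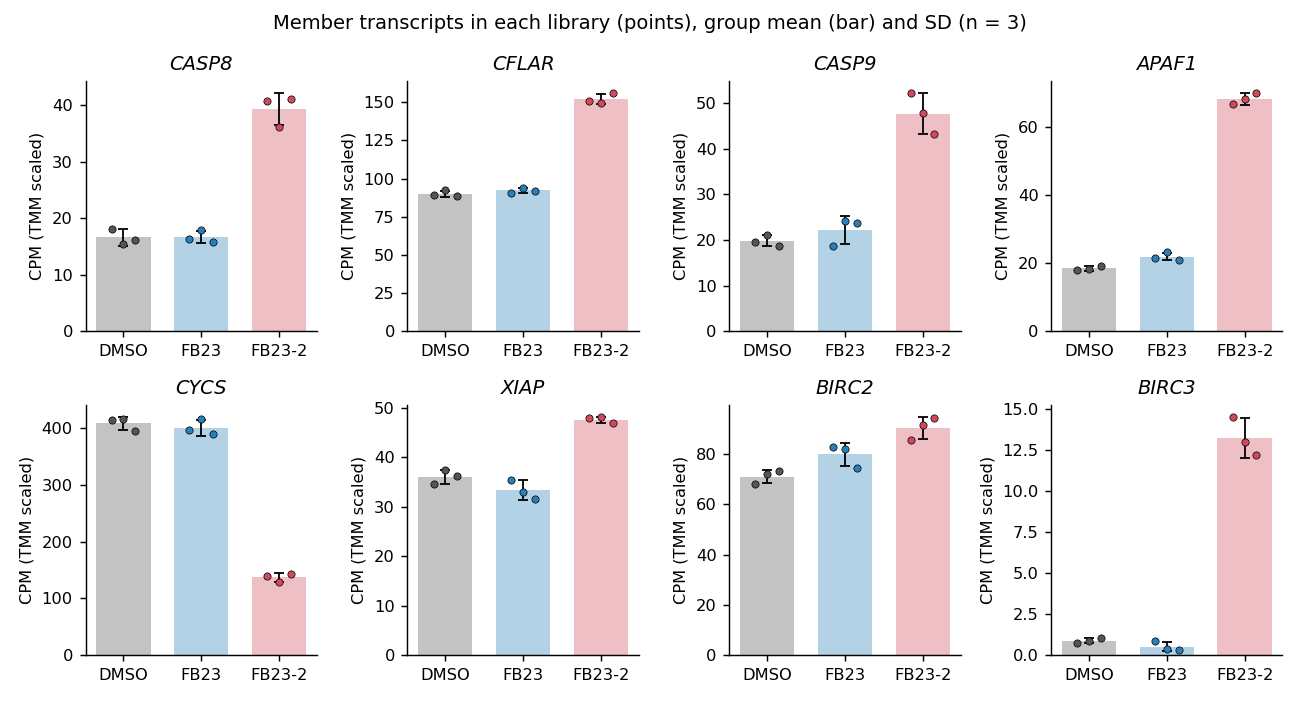
Level of each of the 8 genes in CPM (expected counts scaled to library size with TMM factors) for the DMSO, FB23 and FB23-2 groups, with points for libraries, bars for group means and error bars for the SD of 3 libraries. The FB23-2 points lie above all DMSO points for 7 genes and below them for CYCS, while the FB23 points overlap the DMSO points for all but APAF1 and BIRC2.

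In the death receptor arm, CASP8 (chr2:201233443-201287711, plus strand, GRCh38) is the protease that starts the cascade. CASP8 measured 18.2, 15.4 and 16.2 CPM in the DMSO libraries (replicates 1 to 3), 16.3, 18.0 and 15.8 CPM with FB23 and 40.8, 36.1 and 41.1 CPM with FB23-2. The FB23 and DMSO values intermingled, and every FB23-2 library was above every other library. The mean was 16.6 ± 1.43 CPM (SD, n = 3) with DMSO and 39.4 ± 2.80 CPM (SD, n = 3) with FB23-2, a log2 fold change of 1.25 ± 0.08 (SE; adjusted p = 1.64e-10). The log2 difference was 0.014 ± 0.088 with FB23 (95% interval -0.17 to 0.20, adjusted p = 0.931), and 1.23 ± 0.08 between FB23-2 and FB23 (adjusted p = 1.20e-10). Of all tested genes, 16.7% had a larger rise than CASP8 with FB23-2.

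CFLAR (chr2:201116104-201176687, plus strand) encodes the caspase-8 relative that restrains it, made in a long and a short form. The files hold 1 transcript model per gene, so the forms cannot be told apart here. CFLAR measured 89.2, 92.4 and 88.4 CPM with DMSO, 90.7, 94.1 and 91.7 CPM with FB23 and 150.6, 149.6 and 156.0 CPM with FB23-2. The FB23 and DMSO values overlapped, and the FB23-2 libraries stood clear of the other 6. The log2 fold change with FB23-2 was 0.76 ± 0.04 (SE; adjusted p = 2.50e-11), from 90.0 ± 2.13 to 152 ± 3.46 CPM (SD, n = 3). It was 0.035 ± 0.044 with FB23 (95% interval -0.059 to 0.13, adjusted p = 0.619) and 0.72 ± 0.04 between the compounds (adjusted p = 4.36e-11). Removing the trends on GC content and transcript length, chosen after seeing the data, kept the calls and lowered these values to 0.32 against DMSO and 0.30 against FB23.

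In the mitochondrial arm, CYCS (chr7:25120091-25125361, minus strand) encodes cytochrome c, the electron carrier of the respiratory chain that also triggers the apoptosome. It was the most abundant member with DMSO and with FB23, and the only one of the 8 that was lower with FB23-2. CYCS measured 415, 416 and 395 CPM with DMSO, 397, 417 and 390 CPM with FB23 and 139, 128 and 143 CPM with FB23-2. All 3 FB23-2 libraries were far below the other 6, among which FB23 and DMSO overlapped. The mean fell from 409 ± 11.9 to 137 ± 7.70 CPM (SD, n = 3), a log2 fold change of -1.58 ± 0.05 (SE; adjusted p = 4.79e-15), and 6.99% of all tested genes had a larger fall. The log2 difference with FB23 was -0.027 ± 0.047 (95% interval -0.13 to 0.072, adjusted p = 0.731), and that between the compounds was -1.55 ± 0.05 (adjusted p = 7.47e-15).

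APAF1 (chr12:98645141-98735433, plus strand) encodes the scaffold of the apoptosome. APAF1 measured 17.9, 18.1 and 19.2 CPM with DMSO, 21.5, 23.1 and 21.0 CPM with FB23 and 66.6, 68.0 and 69.9 CPM with FB23-2. The 3 groups did not overlap, with FB23 slightly above DMSO and FB23-2 well above both. With FB23-2 the mean rose from 18.4 ± 0.677 to 68.2 ± 1.69 CPM (SD, n = 3), a log2 fold change of 1.89 ± 0.06 (SE; adjusted p = 1.36e-14) that 9.26% of all tested genes exceeded. With FB23 the mean was 21.9 ± 1.09 CPM (SD, n = 3) and the log2 fold change 0.25 ± 0.07 (adjusted p = 0.0135). The FB23 call was lost without DMSO replicate 1, DMSO replicate 2 or FB23 replicate 2, with an adjusted p of up to 0.0729. The compounds differed by 1.64 ± 0.06 on the log2 scale (adjusted p = 5.21e-14).

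CASP9 (chr1:15490832-15526534, minus strand) encodes the initiator protease that the apoptosome activates. CASP9 measured 19.6, 21.1 and 18.7 CPM with DMSO, 18.6, 24.2 and 23.8 CPM with FB23 and 52.2, 47.8 and 43.1 CPM with FB23-2. FB23 replicate 1, the library with the fewest counts, lay just below the lowest DMSO value, and the other FB23 libraries lay above all DMSO libraries. The log2 fold change with FB23-2 was 1.27 ± 0.09 (SE; adjusted p = 6.74e-10), from 19.8 ± 1.22 to 47.7 ± 4.51 CPM (SD, n = 3), and that between the compounds was 1.08 ± 0.09 (adjusted p = 3.49e-09). With FB23 the log2 difference was 0.19 ± 0.10 (95% interval -0.012 to 0.40, adjusted p = 0.167). Without FB23 replicate 1 this difference was 0.28 and passed the test (adjusted p = 0.0279), as it did at 0.23 with no filter on low counts (adjusted p = 0.0476).

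Among the inhibitors, XIAP (chrX:123859724-123913979, plus strand) encodes the IAP that blocks caspases by direct binding. XIAP measured 34.6, 37.4 and 36.1 CPM with DMSO, 35.5, 33.1 and 31.6 CPM with FB23 and 47.9, 48.1 and 47.0 CPM with FB23-2. The FB23 range overlapped the DMSO range at its upper end, and the FB23-2 libraries were tightly grouped above both. The log2 fold change with FB23-2 was 0.40 ± 0.06 (SE; adjusted p = 7.74e-06), from 36.0 ± 1.41 to 47.7 ± 0.606 CPM (SD, n = 3). That rise was lost after removal of the GC content and length trends (0.043, adjusted p = 0.454). The log2 difference with FB23 was -0.12 ± 0.06 (95% interval -0.25 to 0.0079, adjusted p = 0.169), and the compounds differed by 0.53 ± 0.06 (adjusted p = 2.48e-07), which became 0.17 (adjusted p = 0.00398) after the same removal of trends.

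BIRC2 (chr11:102347211-102378670, plus strand) encodes cIAP1, which attaches ubiquitin to RIPK1 at the TNF receptor. BIRC2 measured 68.1, 72.1 and 73.2 CPM with DMSO, 83.0, 82.1 and 74.7 CPM with FB23 and 85.6, 91.7 and 94.3 CPM with FB23-2. The 3 groups followed one another without overlap, although FB23 replicate 3 lay close to the highest DMSO library. The log2 fold change with FB23-2 was 0.35 ± 0.06 (SE; adjusted p = 2.00e-05), from 71.1 ± 2.67 to 90.6 ± 4.45 CPM (SD, n = 3), and 37.7% of all tested genes had a larger rise. With FB23 it was 0.16 ± 0.06 (adjusted p = 0.0441), a call that was lost under 9 of 16 alternatives, among them the omission of any 1 DMSO library, FB23 replicate 1 or FB23 replicate 2, with an adjusted p of up to 0.181. The compounds differed by 0.18 ± 0.05 (adjusted p = 0.00544), which was lost with no filter on low counts (0.12, adjusted p = 0.0518).

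BIRC3 (chr11:102317450-102339403, plus strand) encodes cIAP2, the closest relative of cIAP1 and a known target of NF-kappaB. It was the rarest member with DMSO and the one that rose most with FB23-2. The expected counts of BIRC3 were 12, 15 and 17 with DMSO, 10, 11 and 12 with FB23 and 376, 250 and 200 with FB23-2, which is 0.732, 0.842 and 1.05 CPM, 0.819, 0.359 and 0.324 CPM, and 14.5, 12.9 and 12.2 CPM. Every FB23-2 library was more than 10 CPM above every other library, and FB23 replicate 1 lay inside the DMSO range while the other FB23 libraries lay below it. The log2 fold change with FB23-2 was 3.92 ± 0.20 (SE; adjusted p = 5.86e-12), and 1.76% of all tested genes had a larger rise. From the summed counts alone, 826 with FB23-2 and 44 with DMSO, the ratio after scaling to library size was 15.4 (95% counting interval from 11.3 to 21.3).

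With FB23 the log2 fold change of BIRC3 was -1.05 ± 0.34 (SE; adjusted p = 0.0340). It rests on 33 counts against 44, a scaled ratio of 0.473 (95% counting interval from 0.292 to 0.761), and the groups overlap. The call was lost under 8 of 16 alternatives, among them the omission of any 1 DMSO library, FB23 replicate 2 or FB23 replicate 3, with an adjusted p of up to 0.141. Between the compounds the log2 difference was 4.96 ± 0.22 (adjusted p = 5.18e-13), a 31.2-fold higher level with FB23-2.

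**Figure D2:**
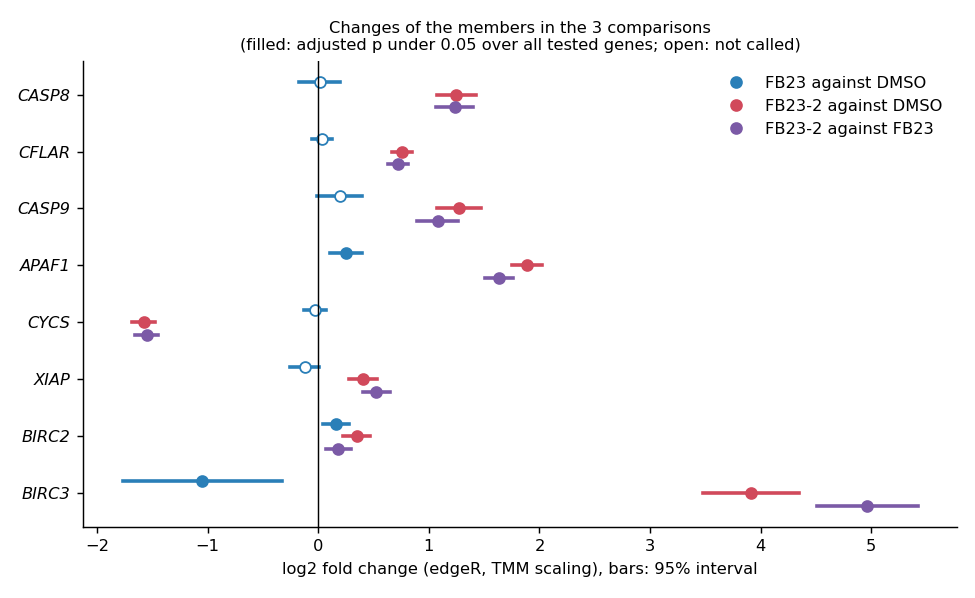
Log2 fold change of each of the 8 genes in the 3 comparisons, with bars for the 95% interval and filled points for an adjusted p under 0.05. The FB23-2 points run from -1.58 for CYCS to 3.92 for BIRC3 against DMSO, while 5 of the 8 FB23 points are open and lie near 0.

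The bases upstream of BIRC3 and CYCS are shown because these genes had the largest rise and the largest fall of the 8, which is a choice made with their values known. The stretches come from the RefSeq promoter table on GRCh38.p14, end where the first annotated exon begins, and are printed on the strand of the gene, with matches in capitals. In BIRC3 the capitals mark matches to the kappaB motif, both read on the opposite strand. In CYCS they mark the core GCATGCGC of the site of NRF1, a factor known for the promoters of respiratory chain genes.
BIRC3, chr11:102317234-102317449: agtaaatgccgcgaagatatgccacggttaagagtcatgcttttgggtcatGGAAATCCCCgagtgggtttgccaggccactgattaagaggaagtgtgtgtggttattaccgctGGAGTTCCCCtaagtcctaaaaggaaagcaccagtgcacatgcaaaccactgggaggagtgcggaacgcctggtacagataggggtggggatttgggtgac
CYCS, chr7:25125362-25125510: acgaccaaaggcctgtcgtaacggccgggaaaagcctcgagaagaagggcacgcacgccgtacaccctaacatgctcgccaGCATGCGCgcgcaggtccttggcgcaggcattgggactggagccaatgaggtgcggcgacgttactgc

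A kappaB match on either strand was found in 5.91% of 35116 promoter windows of 300 bases, and the NRF1 core in 3.05%. BIRC3 held 2 kappaB matches in its window, and a kappaB match was also found in 1 of the 4 windows of CFLAR and in no window of the other 6 members. The NRF1 core was found in CYCS alone among the 8. Matches to GGGCGG, the SP1 box, were present in at least 1 window of 6 members, BIRC3 and CYCS being the exceptions, and in 45.0% of all windows. The E-box CACGTG (7.26% of all windows) and the E2F motif TTTCCCGC (1.63%) were found in no window of the 8. A match is a run of letters and not a measured binding site.

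Levels can be compared between genes only per length, for which the deposited TPM values were used. With DMSO the order was CYCS at 105 TPM, BIRC2 at 27.5, CFLAR at 11.7, CASP9 at 10.5, CASP8 at 9.25, XIAP at 5.92, APAF1 at 3.66 and BIRC3 at 0.177 TPM, and no neighbours in this order overlapped over the 3 libraries. With FB23 the order was the same, and CFLAR and CASP9, and CASP9 and CASP8, overlapped. With FB23-2 the levels drew together: CYCS at 41.8 TPM overlapped BIRC2 at 41.7 TPM, and they were followed by CASP9 at 30.0, CASP8 at 26.1, CFLAR at 23.6, APAF1 at 16.1, XIAP at 9.33 and BIRC3 at 3.18 TPM. Here CASP9 overlapped CASP8 and CASP8 overlapped CFLAR, and APAF1 stood above XIAP, below which it had been in the other groups. The lowest and the highest FB23-2 values of APAF1 were 15.3 and 17.3 TPM, and those of XIAP were 9.10 and 9.61 TPM.

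**Figure D3:**
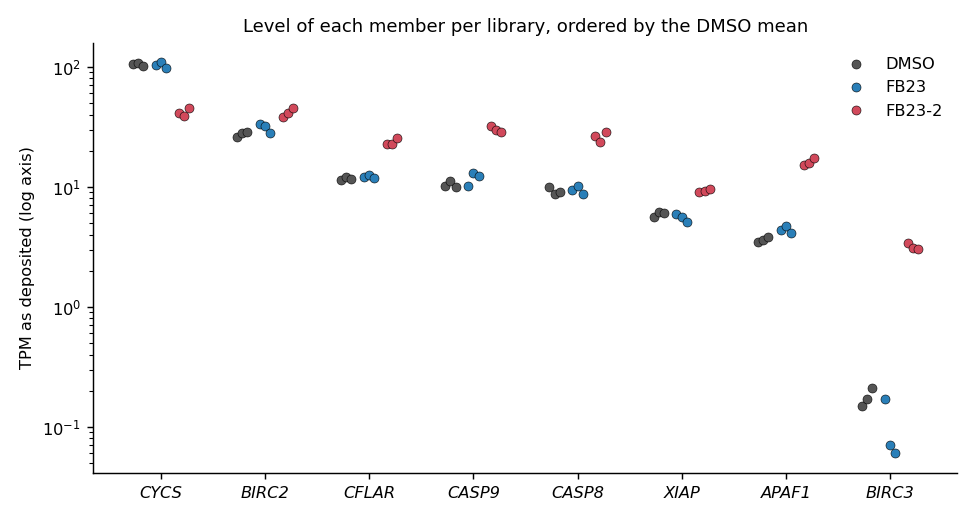
Deposited TPM of each of the 8 genes on a log axis, ordered by the DMSO mean, with 1 point per library and a colour per group. CYCS falls from about 105 TPM with DMSO to 41.8 TPM with FB23-2, level with BIRC2, and BIRC3 rises from 0.177 to 3.18 TPM but is the lowest gene in all groups.

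TPM divides by the total of all transcripts per length, and in that unit the FB23-2 group stood higher against DMSO for every member than in CPM with TMM factors. The ratio of mean TPM was 2.83 for CASP8, 2.01 for CFLAR, 0.399 for CYCS, 4.41 for APAF1, 2.86 for CASP9, 1.58 for XIAP, 1.52 for BIRC2 and 18.0 for BIRC3. The directions were those of the CPM fit.

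Ratios between partners within a library do not depend on the scaling of that library. The ratio of CASP8 to CFLAR in TPM was 0.872, 0.712 and 0.784 with DMSO, 0.775, 0.815 and 0.737 with FB23 and 1.16, 1.03 and 1.12 with FB23-2. In TPM the CASP8 transcript thus stood below that of CFLAR in the DMSO and FB23 libraries and above it in all 3 FB23-2 libraries. Which of them is higher rests on the 1 model length per gene, 2747 bases for CASP8 and 10518 bases for CFLAR. In CPM, which is not per length, CFLAR was at 152 and CASP8 at 39.4 with FB23-2. The ratio of BIRC3 to BIRC2 was 0.0058 to 0.0074 with DMSO, 0.0021 to 0.0051 with FB23 and 0.068 to 0.089 with FB23-2, so BIRC2 was the main cIAP transcript in every library.

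The ratio of APAF1 to XIAP was 0.618 ± 0.028 with DMSO, 0.793 ± 0.056 with FB23 and 1.73 ± 0.061 with FB23-2 (SD, n = 3). The ratio of CASP9 to XIAP was 1.77 ± 0.091 with DMSO, 2.16 ± 0.397 with FB23 and 3.22 ± 0.279 with FB23-2 (SD, n = 3). For FB23-2 all 4 ratios lay above those of DMSO and of FB23 without overlap. The exact two-sided permutation test gave p = 0.1 for each of these, the smallest value that 3 against 3 libraries can give, and 0.12 after Benjamini-Hochberg adjustment over 12 comparisons, so none could pass 0.05. For FB23 against DMSO the exact p was 0.1 for BIRC3 to BIRC2 and APAF1 to XIAP, 0.3 for CASP9 to XIAP and 0.9 for CASP8 to CFLAR.

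**Figure D4:**
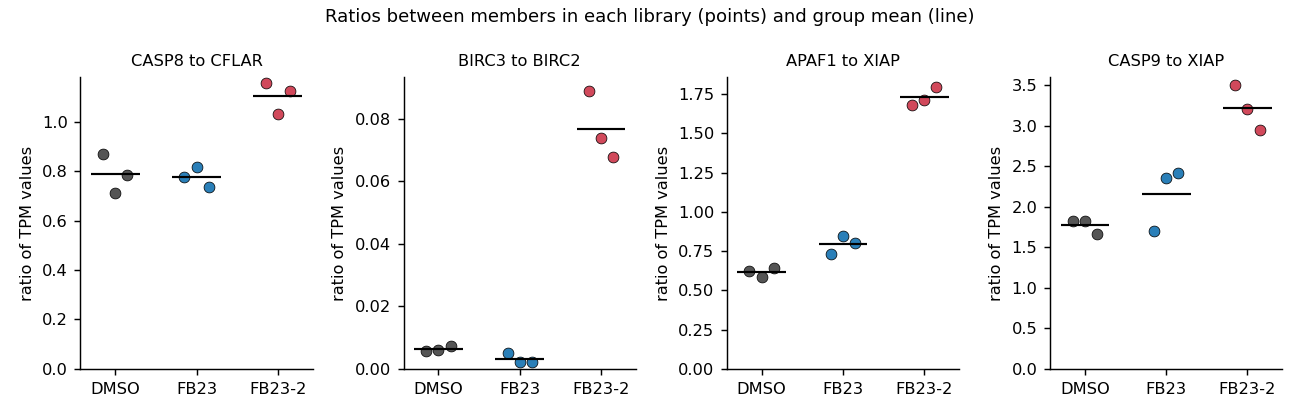
Ratio of TPM values within each library for 4 pairs of genes, with points for libraries and a line for the mean of 3. The CASP8 to CFLAR ratio is above 1 in all 3 FB23-2 libraries and below 1 in the other 6, and the FB23-2 points are the highest in every panel.

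The wider pathway was followed in 6 lists of 61 genes, of which 47 were tested. With FB23-2 against DMSO, 19 of the 47 were called higher, 22 lower and 6 were not called (87.2%, beside the 82.6% of all tested genes), with a median log2 fold change of -0.017. With FB23, 4 were called higher and 10 lower (29.8%, beside 23.5%). Those FB23 counts depended on single libraries: without DMSO replicate 2 there were 1 higher and 3 lower, and the lower count was also 4 without DMSO replicate 1, 5 without DMSO replicate 3 and 4 without FB23 replicate 2. Between the compounds 19 were higher and 21 lower with FB23-2. The counts per list below stand beside 41.3% of all tested genes called higher and 41.3% lower with FB23-2, and 12.3% higher and 11.2% lower with FB23.

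Among the other caspases, 4 of 6 tested genes rose with FB23-2 and none was called lower, a called share of 66.7% beside 82.6% of all tested genes. CASP10, the other death receptor caspase, rose by 0.45 ± 0.12 on the log2 scale (SE; adjusted p = 0.00155), from 9.89 ± 1.70 to 13.6 ± 0.139 CPM (SD, n = 3). None of the 6 was called with FB23, although CASP10 (0.27 ± 0.12, adjusted p = 0.104) passed without FB23 replicate 3 (adjusted p = 0.0321) and with no filter (adjusted p = 0.0391).

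The other BIR-domain genes moved in both directions with FB23-2. BIRC5 (survivin), best known for its part in cell division, fell by 1.13 on the log2 scale (SE 0.05, adjusted p = 1.36e-12), from 108 ± 4.92 to 49.4 ± 1.56 CPM (SD, n = 3). NAIP, a sensor of bacterial proteins, rose by 0.90 ± 0.09 (adjusted p = 9.40e-08). BIRC6, a very large ubiquitin ligase, was called lower at -0.19 ± 0.05 (adjusted p = 0.00252), a call lost with upper-quartile factors (-0.022) or library totals (-0.045), whereas removal of the GC and length trends gave -0.62 (adjusted p = 6.87e-14). With FB23 none of the 3 was called, although BIRC5 (-0.11, adjusted p = 0.0377) and BIRC6 (-0.12, adjusted p = 0.00595) passed after removal of the GC and length trends.

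The genes whose proteins leave mitochondria to counter the IAPs or to act on DNA gave 4 lower and 1 higher of 5 tested with FB23-2, where 82.6% of all tested genes were called. AIFM1 fell by 1.44 on the log2 scale (SE 0.05, adjusted p = 4.04e-14), and ENDOG, a mitochondrial nuclease, fell by 0.88 (SE 0.08, adjusted p = 2.14e-08). DIABLO (Smac), which displaces caspases from XIAP, fell by 0.31 (SE 0.07, adjusted p = 0.000359), a call lost with upper-quartile factors (-0.13, adjusted p = 0.0660). SEPT4, which gives rise to the XIAP antagonist ARTS, had 1 count with DMSO and 66 with FB23-2, a scaled ratio of 54.0 (95% counting interval from 9.36 to 2164). AIFM1 was the only 1 of the 5 called with FB23 (-0.15 ± 0.05, adjusted p = 0.0320), and that call was lost under 7 of 16 alternatives: without DMSO replicate 1 or 2 or FB23 replicate 1 or 2, with library totals, with the replicate block and with no filter (adjusted p up to 0.190). ENDOG (-0.13 ± 0.08) passed without FB23 replicate 3 (adjusted p = 0.0153) and after removal of the GC and length trends (-0.26, adjusted p = 0.000222). DIABLO (0.13 ± 0.06 with FB23) passed as higher with no filter (0.17, adjusted p = 0.0429).

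Death receptors and their adaptors gave 8 higher and 6 lower of 16 tested with FB23-2. TNFRSF10B, the TRAIL receptor DR5, was named after its values were seen and rose from 63.7 ± 1.01 to 335 ± 7.17 CPM (SD, n = 3), by 2.40 ± 0.05 on the log2 scale (SE; adjusted p = 1.87e-17). Its ligand TNFSF10 (TRAIL) rose by 2.70 ± 0.32 (adjusted p = 5.03e-07) from a low level of 0.751 ± 0.176 CPM (SD, n = 3), whereas TNFRSF10A, another TRAIL receptor, fell by 0.81 (SE 0.08, adjusted p = 4.67e-08). The adaptors moved in both directions: TRADD was higher by 1.12 ± 0.10 and the kinase RIPK1 by 0.81 ± 0.05, while TRAF2, the partner of the cIAPs, was lower at -0.85 ± 0.06. FADD, which joins CASP8 to the receptors, fell by 0.31 (SE 0.06, adjusted p = 0.000275), a call lost with upper-quartile factors (-0.14, adjusted p = 0.0558), where removal of the GC and length trends gave -0.50. TRAF1, which binds the cIAPs through TRAF2, had 2 counts with DMSO and 128 with FB23-2, a scaled ratio of 52.3 (95% counting interval from 14.2 to 437).

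With FB23, 4 of these 16 genes were called higher and 3 lower (43.8%, beside 23.5% of all tested genes). TRADD was higher by 0.40 ± 0.10 (SE; adjusted p = 0.00954), RIPK1 by 0.27 ± 0.05 (adjusted p = 0.00203) and TNFRSF10B by 0.17 ± 0.05 (adjusted p = 0.0167). The TRADD call was lost without DMSO replicate 2 (0.35) or FB23 replicate 3 (0.26; adjusted p up to 0.0589), and that of TNFRSF10B without DMSO replicate 2 (adjusted p = 0.0751). TRAF2 was lower at -0.35 ± 0.06 (adjusted p = 0.000338) and TNFRSF10A at -0.30 ± 0.08 (adjusted p = 0.00962), the latter not without DMSO replicate 1 or 2 (adjusted p up to 0.0548). MLKL, the effector of necroptosis, was called at -1.04 ± 0.36 (adjusted p = 0.0463) from 52 counts with DMSO and 39 with FB23, a call lost under 8 of 14 alternatives, among them the omission of any 1 DMSO library, FB23 replicate 2 or FB23 replicate 3 (adjusted p up to 0.230).

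Regulators of the apoptosome divided with FB23-2 into 3 higher and 4 lower. ANP32A, which promotes apoptosome activity, fell from 344 ± 14.8 to 59.9 ± 0.813 CPM (SD, n = 3), or by 2.52 on the log2 scale (SE 0.05, adjusted p = 2.77e-17). PTMA, which opposes apoptosome formation, fell by 2.07 (SE 0.05, adjusted p = 1.08e-16). NOL3, a CARD protein that restrains caspases, rose by 2.11 ± 0.09 (adjusted p = 5.57e-13), and CARD8 rose by 1.05 ± 0.07 (adjusted p = 7.00e-11). With FB23, ANP32A (-0.27 ± 0.05, adjusted p = 0.000562) and PTMA (-0.15 ± 0.05, adjusted p = 0.0275) were the 2 called genes of the 7, and the PTMA call was lost with no filter and without any 1 DMSO library or FB23 replicate 2 (adjusted p up to 0.115).

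Of 10 caspase substrates and the nuclease they release, 2 were higher and 6 lower with FB23-2. DFFB, the nuclease that cuts DNA between nucleosomes, fell by 2.26 on the log2 scale (SE 0.11, adjusted p = 2.27e-12), and BID, which CASP8 cleaves to reach the mitochondria, fell by 1.33 (SE 0.09, adjusted p = 1.33e-10). The gasdermins, pore formers released by proteolysis, went the other way: DFNA5 (gasdermin E) rose by 3.72 ± 0.30 (adjusted p = 2.69e-09) from 19 counts to 312, and GSDMD by 3.43 ± 0.25 (adjusted p = 6.45e-10) from 19 counts to 255. LMNB1, a lamin of the nuclear envelope, was lower at -1.32 ± 0.04 with FB23-2 (adjusted p = 8.91e-15) and at -0.17 ± 0.04 with FB23 (adjusted p = 0.00759). The FB23 call of LMNB1 was lost without FB23 replicate 2 (adjusted p = 0.0578). With FB23, 0 of the 10 were called higher and 4 lower (40%, beside 23.5% of all tested genes called). DFFB was lower at -0.33 ± 0.09 (adjusted p = 0.0136), a call lost without DMSO replicate 2 or 3 (adjusted p up to 0.0615). PAK2 (-0.13, adjusted p = 0.0367) and ROCK1 (-0.14, adjusted p = 0.0447) were also called lower, and the alternatives were not followed for them.

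**Figure D5:**
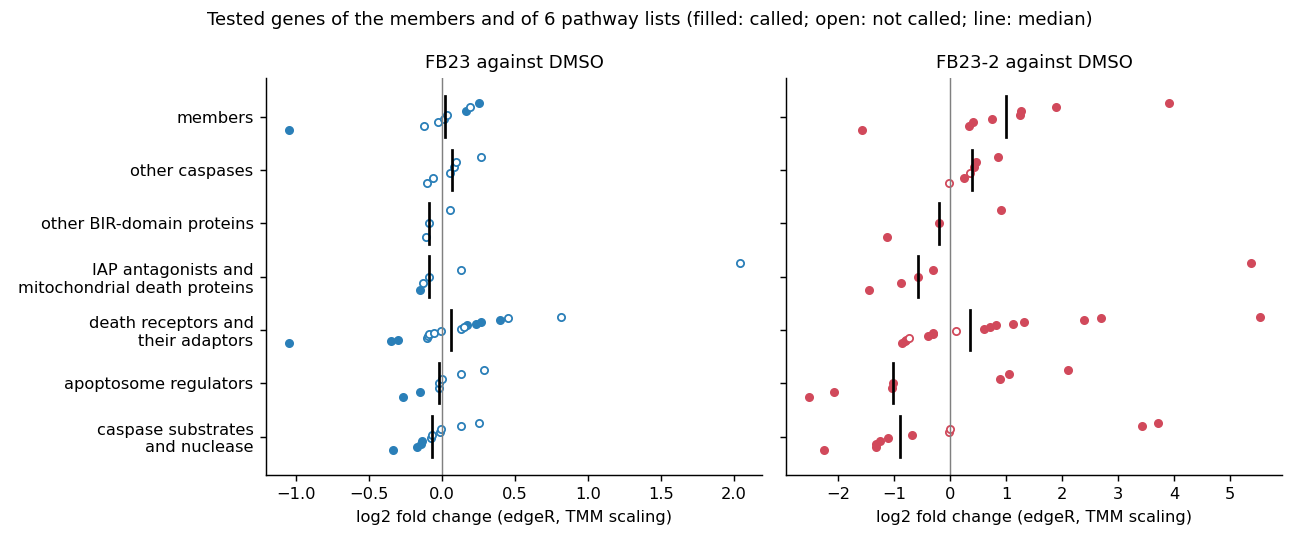
Log2 fold change of every tested gene among the 8 members and the 6 pathway lists, for FB23 (left) and FB23-2 (right) against DMSO on axes of different width, with filled points for called genes and a line for the median of each list. The members have the highest FB23-2 median, 1.0, and the lists for apoptosome regulators and caspase substrates have medians of -1.02 and -0.89.

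Some of the members are neighbours in the genome. BIRC3 and BIRC2 are neighbours on chromosome 11, 7.8 kb apart in the same direction, and CFLAR, CASP10 and CASP8 span 171.6 kb of chromosome 2. Both cIAP genes rose with FB23-2, by 3.92 and 0.35 on the log2 scale. Of the 3 tested genes listed around them, TMEM123 (chr11:102396332-102470384) was at -0.24 ± 0.04. The other tested genes lie farther from BIRC2, which ends at base 102378670. DCUN1D5 (from base 103062076) fell by 1.98 (SE 0.05, adjusted p = 7.08e-16), and DYNC2H1 (from base 103109410) was at 0.84 ± 0.32. The TMEM123 call was lost with upper-quartile factors or library totals and that of DYNC2H1 with GC and length trends removed or without DMSO replicate 1 or 3 or FB23-2 replicate 2 or 3 (adjusted p up to 0.176). Around the 3 genes on chromosome 2, all of which rose, 5 of 9 tested neighbours were higher and 4 lower. The largest rise was that of ALS2CR12, which lies next to CASP8 on the minus strand (3.33 ± 0.20, from 38 counts to 469). TRAK2 followed (1.70 ± 0.05), and the largest fall was that of ORC2 (-0.82 ± 0.06). The counts of called neighbours stand beside 41.3% of all tested genes called higher and 41.3% called lower with FB23-2, so they set the neighbours apart from no other genes.

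For each member the genes with the most similar course over the 9 libraries were found by the root mean square difference of log2 CPM from the DMSO mean, among 11435 genes. The smallest differences were 0.033 for CFLAR with MKRN1, 0.038 for BIRC2 with ZNF451, 0.039 for APAF1 with CYTH2 and 0.040 for CYCS with DDX1. XIAP was nearest to DSCR3 at 0.054, CASP8 to EXT1 at 0.066 and CASP9 to LIN37 at 0.084. For BIRC3 the nearest gene was BMF at 0.446, which encodes a BH3-only death protein, followed by C3 at 0.473. BIRC3 had only 10 to 17 counts in each DMSO and FB23 library. The part of counting noise and of the minimum level for the search in its larger differences was not tested.

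Shared sequence limits some of these values, as searched in the GENCODE transcripts paired with the RefSeq models of the files, which are shorter than those models for several members. Of the 6980 words of 50 bases searched for APAF1 (a model of 7029 bases), 10.6% were also found in other genes, mostly in ANKS1B on the opposite strand, which had 0 counts in every library. The share was 5.08% for XIAP and 4.40% for CYCS, which has processed pseudogenes, and 1.79% for CFLAR (2007 words searched of a model of 10518 bases), mostly its antisense partner CFLAR-AS1, which had at most 2 counts in any library. BIRC2 and BIRC3 shared 11 words. None was shared among the 1581 words searched for CASP8 (a model of 2747 bases) and the 1302 for CASP9 (a model of 2869 bases), and the rest of these models was not searched. The library kit keeps the strand, but no source here states the strand setting of the counting, so reads of overlapping antisense genes cannot be told apart.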

How the data were processed

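Poly(A) RNA libraries were made with a directional kit, per the labels' protocols. The deposited tables, 1 per library, give the expected count per gene by RSEM, and TPM and FPKM per gene, per the file headers. They also give the length and effective length of each gene in bases, per the file headers. RSEM 1.2.31 and GRCh38 are named in the submitters' processing notes, and no source here names the aligner, the annotation release or a filter.

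After rounding, the expected counts entered edgeR 4.0.16 (R 4.3.3). The filterByExpr filter (minimum count 10, minimum total 15) left 13365 genes, scaling used TMM factors, and all 9 libraries shared 1 quasi-likelihood fit with a mean for each group. The F test was two-sided, with Benjamini-Hochberg adjustment over all tested genes and calls at an adjusted p under 0.05. Standard errors were derived from F, and 95% intervals are given. The common biological coefficient of variation was 5.12%. The procedure was also run on simulated counts. Far fewer genes changed there than were called with FB23-2, so that run cannot test the scaling under so wide a change. Total counts of 12360300 to 38410800 per library set the precision, and counting intervals cover counting error only. TPM served for levels and ratios and FPKM for an alternative. No 2 libraries held identical values.

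The members and lists were chosen with earlier results of these data known. The rule for named genes took all 8 members, CASP10, BIRC5, DIABLO and FADD, and from each list the 2 called genes that rose most and the 2 that fell most against DMSO; the text describes some of these, and some items are not reported here. TNFRSF10B, the genes given a count ratio and the 2 promoters printed were chosen after values were seen. Gene positions are from GENCODE v29. A planned test of transcript length gave no value, since the length of every gene was the same in all libraries.

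Alternatives were other scalings (DESeq2 size factors, upper quartiles, library totals), no filter, 1 CPM in at least 3 libraries, DESeq2 1.42.0, limma 3.58.1 (voom), a fit of the 6 libraries of a pair, a block for replicate number, a log2 minimum of 1, and each library left out. Removal of GC and length trends was added after seeing the data.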

Additional observations from a re-analysis of the deposited data

How the results depend on the processing

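With FB23 against DMSO, the 2 members called higher became 1 with DESeq2 size factors, the DESeq2 Wald test or limma-voom, 0 with a log2 minimum of 1, and 0 to 2 without single libraries. The 1 called lower became 0 with limma-voom or only the 6 libraries compared, and 0 to 1 without single libraries. The 4 pathway genes called higher became 9 with no filter, 0 with the log2 minimum and 1 to 4 without single libraries. The 10 called lower became 6 with library totals, 5 with no filter, 1 with the log2 minimum and 3 to 9 without single libraries. With the log2 minimum, FB23-2 against DMSO gave 4 members higher, with 10 pathway genes higher and 11 lower. Of all tested genes, 36.8% passed that minimum in either direction and 20.7% as higher. FB23-2 against FB23 gave 4 members higher, with 9 pathway genes higher and 11 lower, beside 32.2% of all tested genes in either direction and 18.1% higher. The other alternatives run left these FB23-2 counts within 1.5 times. The cause of the other moves was not tested; a log2 minimum removes small changes by construction.

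Deviations of same-numbered libraries correlated weakly, at 0.044 to 0.076 for FB23 with DMSO and 0.026 to 0.086 for FB23-2 with DMSO. Differently numbered libraries gave -0.093 to 0.031 and -0.073 to 0.040 there. For FB23-2 with FB23 the ranges were -0.18 to 0.019 for the same number and -0.13 to 0.17 for different numbers. The main fit did not take the numbers as pairs, and a weak pairing with DMSO is not excluded. With the replicate block, FB23 against DMSO gave 1 member higher, 0 lower and 6 pathway genes lower, and the block changed no called count of the FB23-2 comparisons by over 1.5 times.

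Reversed values, none of them called, were as follows. With FB23 against DMSO, CASP8 ranged from -0.046 to 0.084 without single libraries (-0.040 without DMSO replicate 2, -0.00054 without DMSO replicate 3, -0.046 without FB23 replicate 2), and CYCS was 0.0041 with no filter. FADD was 0.016 with library totals, 0.027 with no filter, 0.068 without DMSO replicate 1 and 0.034 without FB23 replicate 2 (range -0.066 to 0.068 without single libraries). CARD8 was 0.0039 with library totals, 0.018 with no filter and 0.0077 without FB23 replicate 2 (range -0.028 to 0.0077). NAIP was -0.038 without FB23 replicate 1, TRAF1 -2.83 without FB23 replicate 3 (range -2.83 to 3.81), and without FB23 replicate 2 TNFSF10 was -0.087 (range -0.087 to 0.74) and NIF3L1 0.0057 (range -0.10 to 0.0057). DYNC2H1 was 0.29 without DMSO replicate 2 (range -0.52 to 0.29), and ALS2CR12 was 1.73e-06 with no filter and 0.025 without FB23 replicate 1 (range -0.16 to 0.025). With FB23-2 against FB23, MLKL was -0.019 without FB23 replicate 3 and -0.069 without FB23-2 replicate 2 (range -0.069 to 0.61). TMEM123 was 0.073 and BIRC6 0.064 with upper-quartile factors, and they were 0.029 and 0.021 with library totals. The log2 difference of the CASP8 to CFLAR ratio with FB23 ranged from -0.093 to 0.053 without single libraries, reversing without DMSO replicate 1 (0.053) and FB23 replicate 3 (0.015). The effective length of members differed by 5.94 bases between FB23-2 and DMSO, where the length itself did not differ.

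Upper-quartile factors and library totals moved the median of all genes with FB23-2 against DMSO to 0.18 and 0.16, and the members' log2 values were higher there too, with CYCS at -1.41 and BIRC2 at 0.52 under upper-quartile factors. BIRC3 is the member whose depth limits it most, with 44 counts with DMSO and 33 with FB23.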
